A study of Homo sapiens with 4 samples.

Results

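The nuclear genes of oxidative phosphorylation were examined for IRF3 binding in MM1.S cells, an established line of human multiple myeloma, the cancer of antibody-secreting plasma cells. The genes were the RefSeq GRCh38 protein-coding genes whose symbols begin with NDUF followed by a subunit letter (complex I), SDHA to SDHD (complex II), UQCR (complex III), COX4 to COX8 (complex IV) or ATP5 (complex V). This rule, which uses symbols and no measured value, gave 88 of 20037 protein-coding genes, with 38 in complex I, 4 in complex II, 9 in complex III, 17 in complex IV and 20 in complex V. A member was called when a peak summit lay within 1 kb of either end of its annotated span. The series held 2 IRF3 ChIP libraries and 2 input libraries from MM1.S cells that received no treatment, numbered 1 and 2 in each group. A peak list was used for each ChIP library, and each input entered through the peak calls made against it. Peak calling used 38568845 and 46474586 ChIP tags, against 58025919 and 60348415 input tags. Both libraries come from the same cell line and nothing in the labels says that they came from separate cultures, so agreement between them may be technical. Peak lists hold no expression values, so the plasma cell identity of the line could not be checked against marker genes.

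Oxidative phosphorylation makes most of the ATP of a respiring cell in the inner mitochondrial membrane. Complexes I and II pass electrons from NADH and succinate to ubiquinone, complex III passes them to cytochrome c, complex IV passes them to oxygen, and complex V uses the proton gradient to make ATP. Most subunits are encoded in the nucleus, and their promoters are known targets of the nuclear respiratory factors NRF1 and GABP, an ETS family factor, and of YY1. IRF3 is better known as a transcription factor that is activated by viral nucleic acids and binds repeated GAAA elements at interferon and antiviral genes.

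The promoter stretches of 8 genes are shown as examples, from the strongest peak of complex I to an isoform gene with no peak. They do not represent the members, and the weakest called peaks are not among them. Most hold the ETS letters given further on, which 20 of 71 member promoters (28.2%) held in a longer window. None holds the IRF core letters, which 14 of 71 held there. Each is RefSeq sequence of GRCh38.p14, 150 bases ending just before the annotated start, 5′ to 3′ on the gene's strand. Capitals mark matches, on either strand, to the 10 motifs described further on.
NDUFA7, complex I, chr19:8321376-8321525, minus strand: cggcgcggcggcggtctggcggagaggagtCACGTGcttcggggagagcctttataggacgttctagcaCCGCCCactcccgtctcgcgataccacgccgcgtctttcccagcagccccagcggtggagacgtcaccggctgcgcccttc
SDHD, complex II, chr11:112086723-112086872, plus strand: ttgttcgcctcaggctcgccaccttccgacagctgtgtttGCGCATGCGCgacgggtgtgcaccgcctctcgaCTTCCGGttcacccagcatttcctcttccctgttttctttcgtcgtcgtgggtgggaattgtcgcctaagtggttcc
UQCRQ, complex III, chr5:132866492-132866641, plus strand: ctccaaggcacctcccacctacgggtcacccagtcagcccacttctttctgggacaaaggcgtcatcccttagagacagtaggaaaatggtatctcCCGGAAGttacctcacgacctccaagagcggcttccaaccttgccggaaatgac
COX5A, complex IV, chr15:74938074-74938223, minus strand: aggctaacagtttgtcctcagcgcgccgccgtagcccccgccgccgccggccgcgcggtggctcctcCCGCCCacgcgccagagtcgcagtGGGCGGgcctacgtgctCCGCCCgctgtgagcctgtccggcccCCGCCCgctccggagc
COX5B, complex IV, chr2:97645912-97646061, plus strand: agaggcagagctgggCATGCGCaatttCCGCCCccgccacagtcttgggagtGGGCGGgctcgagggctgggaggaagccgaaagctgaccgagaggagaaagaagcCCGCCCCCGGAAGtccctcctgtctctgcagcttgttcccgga
ATP5PF, complex V, chr21:25735055-25735204, minus strand: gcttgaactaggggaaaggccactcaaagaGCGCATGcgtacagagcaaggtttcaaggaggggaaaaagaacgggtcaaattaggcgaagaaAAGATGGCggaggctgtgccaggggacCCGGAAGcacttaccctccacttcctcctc
COX6A1, complex IV, chr12:120437963-120438112, plus strand: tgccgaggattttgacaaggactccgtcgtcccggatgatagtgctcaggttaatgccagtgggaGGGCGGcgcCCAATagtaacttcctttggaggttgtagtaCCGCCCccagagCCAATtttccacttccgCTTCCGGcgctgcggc
COX6A2, complex IV, chr16:31428361-31428510, minus strand: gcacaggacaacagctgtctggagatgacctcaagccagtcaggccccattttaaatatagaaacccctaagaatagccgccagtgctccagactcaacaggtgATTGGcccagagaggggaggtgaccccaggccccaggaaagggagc

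IRF3 peaks lay at most oxidative phosphorylation genes in both replicates, and 8 of the 15 exceptions were complex IV genes. A peak was present in both lists at 73 of the 88 members (83.0%, exact 95% binomial interval 73.4 to 90.1%), while 50.0% of all protein-coding genes were called by the same rule. In the list of replicate 1, 73 members were called (51.4% of all protein-coding genes), and in the list of replicate 2, 74 (55.2% of all protein-coding genes). The 73 members rested on 71 distinct peaks in each list, because the readthrough genes NDUFC2-KCTD14 and ATP5MF-PTCD1 share an end with NDUFC2 and ATP5MF. Fold enrichment is the authors' own value for each peak, the ChIP pileup over the local input, and the highest peak at a gene was taken. With a fold enrichment of at least 5 required in each list, 52 members (59.1%) were called, and 28.6% of all protein-coding genes. With the authors' −log10 q at 5 or above in each list the members numbered 73 again, and 48.4% of all protein-coding genes passed. Within 500 bp of a gene end 71 members were called, and 44.5% of all. With peaks of the lists required to overlap by at least 50% of each, 69 members were called, and 44.3% of all. Intervals cover counting error only, and genes that share a promoter are not independent.

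By complex, members with a peak in both lists numbered 35 of 38 in complex I (92.1%, interval 78.6 to 98.3%), 4 of 4 in complex II (interval 39.8 to 100%), 8 of 9 in complex III (88.9%, 51.8 to 99.7%), 9 of 17 in complex IV (52.9%, 27.8 to 77.0%) and 17 of 20 in complex V (85.0%, 62.1 to 96.8%). Complex IV had the lowest share under this rule and was close to the 50.0% of all protein-coding genes. With annotated starts added to gene ends it had 11 of 17 (64.7%), beside 53.4% of all protein-coding genes. With annotated starts alone it had 10 of 14 (71.4%), beside 54.5% of all genes with such a start. Complex IV was still the lowest in both, but its closeness to all genes rests on the rule of gene ends with no fold enrichment threshold. The order changed with the threshold. At a fold enrichment of at least 5 in each list, 26 of 38 complex I genes (68.4%) were called and 12 of 20 in complex V (60%). In complex IV 8 of 17 (47.1%) were called, in complex III 4 of 9 (44.4%) and in complex II 2 of 4. Of all protein-coding genes 28.6% were called at this threshold. The intervals above are for gene ends without a fold enrichment threshold. Among them, that of complex IV ended at 77.0%, just under the start of that of complex I at 78.6%, and overlapped those of complexes II, III and V. This is not a test of a difference. Complex IV includes 6 tissue-restricted isoform genes, described next. Its 10 genes for ubiquitous subunits had 9 called (90%), with an interval of 55.5 to 99.7% that overlaps that of complex I. No test between complexes was made, since genes of a complex are not replicates of it.

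**Figure D1:**
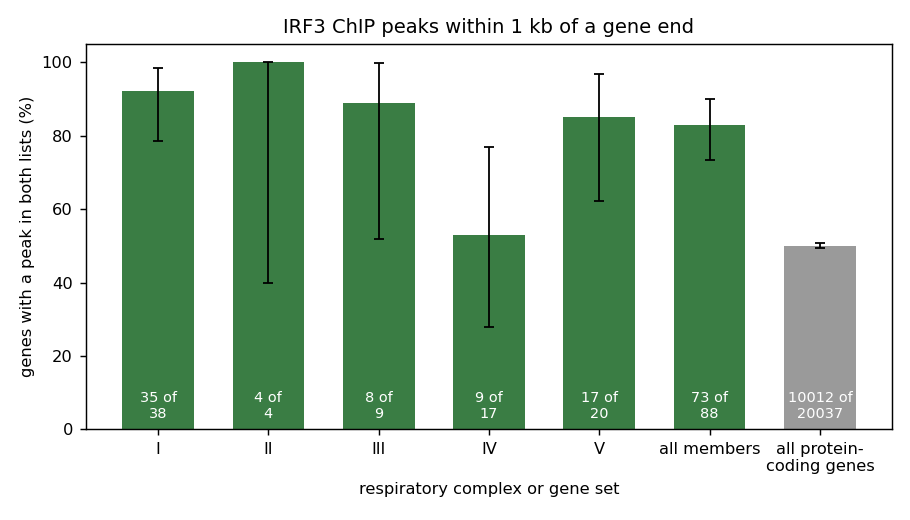
Share of genes with an IRF3 peak summit within 1 kb of a gene end in both replicate lists (%), for complexes I to V, all 88 members and all 20037 protein-coding genes. Bars are shares, lines are exact 95% binomial intervals, and complex IV stands at 52.9% while the other complexes stand at 85.0% or above.

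The complex IV genes without a peak were mostly its tissue-restricted isoforms. Mammals carry alternative genes for several complex IV subunits, of which COX4I2 is known from lung, COX6A2 and COX7A1 from heart and skeletal muscle, and COX6B2, COX7B2 and COX8C from testis. None of these 6 isoform genes had a peak in either list, whereas 9 of the 10 genes for ubiquitous subunits had a peak in both. The members UQCRHL, an intronless copy of UQCRH, and ATP5MGL, a copy of ATP5MG, had no peak either. At these 8 genes the nearest summit lay 8.55 to 66.9 kb from a gene end in replicate 1 and 8.43 to 66.9 kb in replicate 2, with COX7B2 the most distant and COX6B2 the nearest. Without these 8 genes, none of which was called, 73 of 80 members were called (91.3%, interval 82.8 to 96.4%). The share over all protein-coding genes was 50.0%. No such genes were left out of it, so it is not a like measure for the 91.3% or for the ubiquitous subunits. The grouping of isoforms uses textbook knowledge of where they are expressed, and their expression in MM1.S cells was not measured here.

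The ubiquitous partner carried a peak in 7 of the 8 pairs of isoform or copy and counterpart. COX4I1 had a fold enrichment over input of 6.40 in replicate 1 and of 9.13 in replicate 2, and COX6A1 had 5.16 and 9.51. COX6B1 had 6.25 and 5.68, COX7B had 6.75 and 9.47, and COX8A had 4.68 and 9.86. UQCRH had 4.66 and 8.06, and ATP5MG had 4.61 and 9.96. These values are moderate, and replicate 2 was the higher at each of these genes except COX6B1. The exception among the pairs was COX7A2, the ubiquitous partner of COX7A1, which had no summit within 1 kb of its ends but a strong peak inside its span, described next. In sequence, the printed COX6A1 and COX6A2 promoters differ in their matches. COX6A1 has GGGCGG letters on both strands, a pair of CCAAT matches and an ETS match at -16 to -10 from the start. COX6A2 has a single CCAAT match at -46 to -42. Other pairs differ from this one. In the longer window searched further on, COX6B2 held GGGCGG letters and COX6B1 did not. COX8A held them and COX8C did not, and neither COX7B nor COX7B2 held them. Reads of near-identical copies such as UQCRHL and UQCRH can be placed at the wrong copy, and the labels do not say how such reads were handled.

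**Figure D2:**
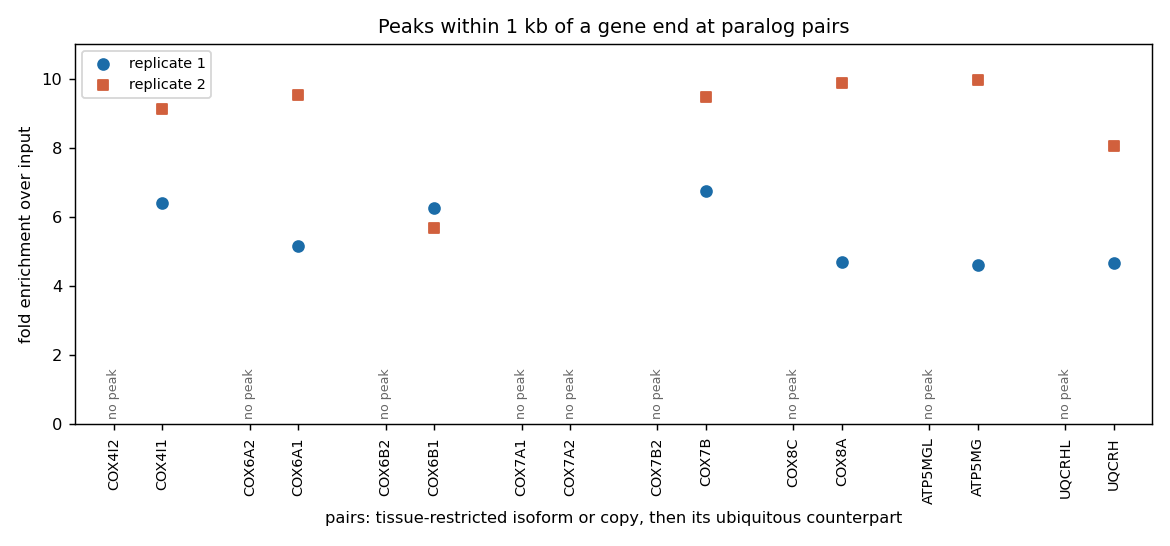
Fold enrichment over input of the strongest peak within 1 kb of a gene end, for 8 pairs of a tissue-restricted isoform or copy (left of each pair) and its ubiquitous counterpart (right). Circles are replicate 1 and squares replicate 2, no isoform or copy has a point, and 7 of the 8 counterparts have both.

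Of the 7 remaining members without a call in both lists, 5 had peaks at a start site inside the annotated span, because the span reaches beyond the start where the peak lies. At COX7A2 the internal peak had a fold enrichment of 10.1 in replicate 1 and of 19.3 in replicate 2, with summits 69 and 100 bp from an annotated start and 6.06 and 6.03 kb from the gene end. ATP5MC2, which encodes a copy of the c subunit that forms the rotor ring of ATP synthase, had 6.70 and 12.3 at 125 and 112 bp from a start. COX7A2L, a factor of respiratory supercomplexes, had 5.19 and 10.2 at 121 and 131 bp.

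The complex I members NDUFC1 and NDUFA5 also had internal peaks. NDUFC1 had 6.94 and 6.88 at 25 and 8 bp from a start, and NDUFA5 had 3.74 and 5.10 at 59 and 103 bp. With annotated starts added to gene ends, 78 of 88 members (88.6%) and 53.4% of all protein-coding genes were called.

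ATP5ME, which encodes subunit e of ATP synthase, was the only member called in 1 list. Replicate 2 had 2 peaks there, the stronger with a fold enrichment of 4.26 and a summit 336 bp from the gene end and nearer, at 70 bp, to an end of MYL5. The other had a fold enrichment of 3.28 and a summit inside the ATP5ME span, 29 bp from its annotated start. In replicate 1 the nearest summit to ATP5ME lay 108 kb away.

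Where a peak was present, its strength was moderate. Members called in both lists had a median fold enrichment of 6.09 in replicate 1 (quartiles 4.999 and 6.97) and 9.13 in replicate 2 (6.91 and 11.5). All protein-coding genes called in both lists had medians of 5.56 (4.07 and 7.55) and 8.50 (6.001 and 11.98). Ranked among all protein-coding genes called in the same list, with 100 the strongest, the members' median percentiles were 59.4 and 59.4, and those of all genes called in both were 51.0 and 54.4. The upper quartiles of the members did not exceed those of all called genes. In each replicate 5 of the 73 members stood above percentile 90. Of the 10012 genes called in both lists, 1023 did so in replicate 1 and 1101 in replicate 2. Only NDUFA7, NDUFB11, COX5B, ATP5F1B and ATP5MC1 reached a fold enrichment of 10 in both lists, and NDUFB7, NDUFB8 and NDUFA8 stayed under 5 in both. The same counts were not made over all called genes.

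**Figure D3:**
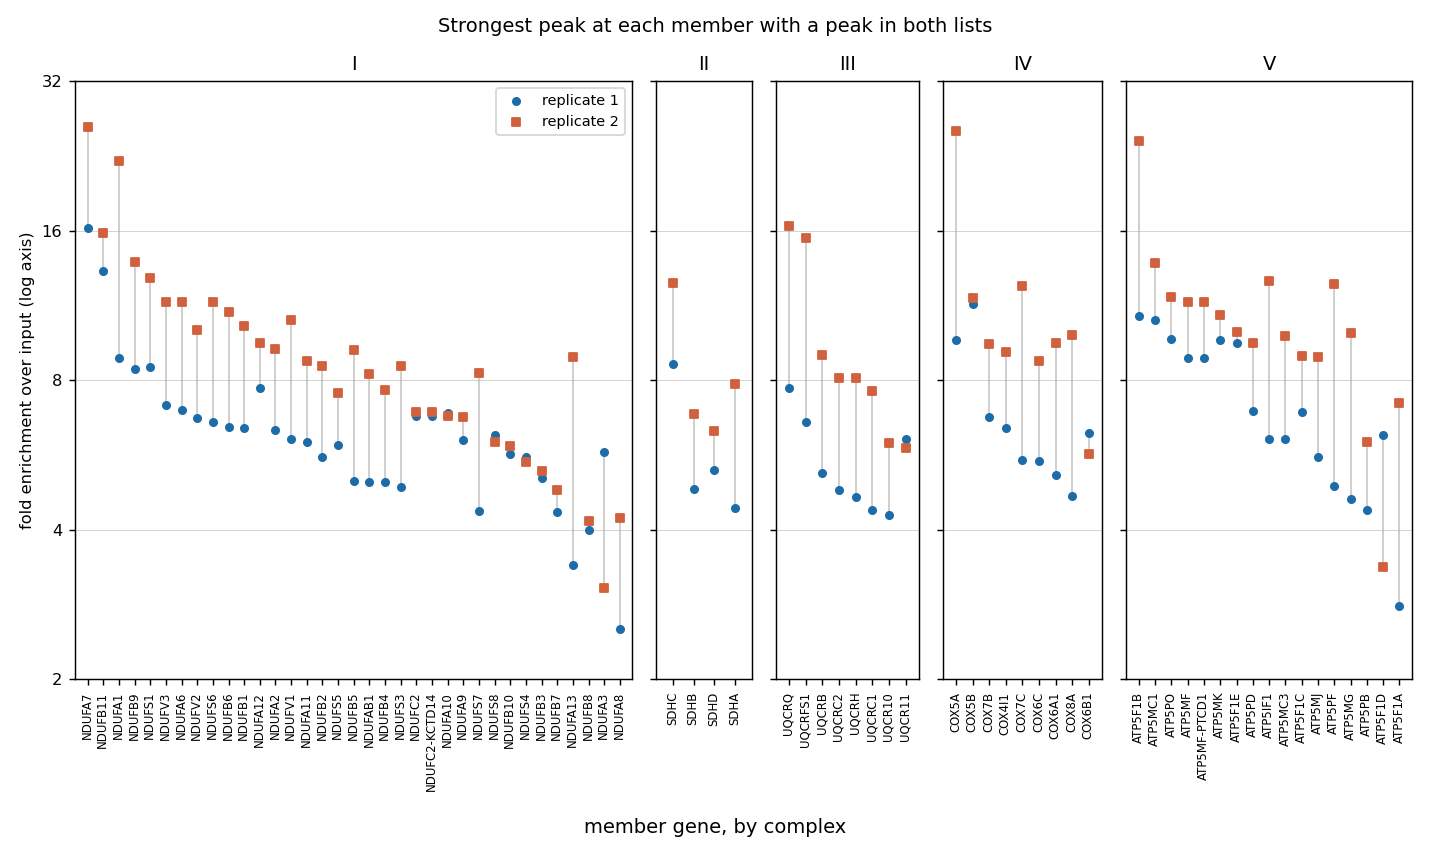
Fold enrichment over input (log axis) of the strongest peak at each of the 73 members called in both lists, grouped by complex and ordered by the lower of the replicate percentiles, with circles for replicate 1 and squares for replicate 2, joined per gene. Most members lie between 4 and 16, with NDUFA7, NDUFA1, UQCRQ, COX5A and ATP5F1B above 16 in replicate 2.

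Between complexes the levels overlapped widely. The median fold enrichments in replicates 1 and 2 were 6.08 and 8.55 in complex I, 5.05 and 7.35 in complex II, 5.005 and 8.06 in complex III, 6.25 and 9.51 in complex IV, and 6.89 and 10.01 in complex V. Complex V had the highest median in both replicates. Its quartiles in replicate 1 were 5.60 and 9.52, those of complex I 5.04 and 6.83, and those of complex III 4.59 and 6.22. Complexes II and III had the lowest medians, with 4 and 8 called members. Ranked by pileup in place of fold enrichment, the median percentile of complex II was 63.6 and that of complex IV 48.7, so the order of the complexes below complex V rests on the measure.

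In complex I, 6 of the 7 core subunits and 28 of the 30 supernumerary subunits had a peak in both lists, beside 50.0% of all protein-coding genes. The core subunits include those that carry the flavin and the iron-sulphur clusters. NDUFA7 had the strongest peak of the whole set, with a fold enrichment of 16.2 in replicate 1 and of 25.8 in replicate 2. This peak spanned chr19:8321071-8321937 (GRCh38) in replicate 1. Its summits lay 2 bp apart, upstream of the NDUFA7 start and, in replicate 2, 46 bp from an end of RPS28, a gene of a cytosolic ribosomal protein. NDUFB11, a membrane arm subunit on the X chromosome, had 13.3 and 15.8, and its replicate 2 summit lay 156 bp from an end of RBM10, a splicing regulator gene. NDUFA1, a membrane subunit also on the X chromosome, had 8.86 and 22.1, and NDUFB9 had 8.43 and 13.8. Among core subunits NDUFS1, the largest one, had 8.51 and 12.9, with a summit nearer to an end of the translation factor gene EEF1B2 than to its own. NDUFV1, which binds NADH and the flavin, had 6.08 and 10.6, and its partner NDUFV2 had 6.71 and 10.1. Of the other core subunits, NDUFS3 had 4.87 and 8.52, NDUFS7 had 4.37 and 8.27, and NDUFS8 had 6.20 and 5.99. The medians of both kinds were close, at 6.14 and 9.30 for core and 6.03 and 8.65 for supernumerary subunits.

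Under 5 in both replicates were the supernumerary subunit genes NDUFA8, with 2.53 in replicate 1 and 4.22 in replicate 2, NDUFB8, with 3.99 and 4.16, and NDUFB7, with 4.34 and 4.80. NDUFA3 and NDUFA13 changed place between replicates. NDUFA3 had 5.72 and 3.05, or percentiles 53.7 and 4.05, and NDUFA13 had 3.39 and 8.90, or percentiles 14.6 and 57.8.

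All 4 succinate dehydrogenase genes of complex II were called. SDHC, a membrane anchor, had the strongest peak with 8.64 in replicate 1, at chr1:161313984-161314826, and 12.6 in replicate 2. The other anchor gene SDHD had 5.27 and 6.32. SDHB, the iron-sulphur subunit, had 4.82 and 6.84, and the flavoprotein gene SDHA had 4.42 and 7.86. The SDHD promoter printed above holds the full NRF1 palindrome at -110 to -101 and an ETS match at -77 to -71, while its peak summits lay 55 and 53 bp from the gene end.

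In complex III the strongest peaks were at UQCRQ, a small subunit next to cytochrome b, with 7.72 in replicate 1 and 16.3 in replicate 2, and at UQCRFS1, which encodes the Rieske iron-sulphur protein, with 6.59 and 15.4. UQCRB had 5.20 and 8.998, and the large core proteins UQCRC2 and UQCRC1 had 4.81 and 8.06 and 4.37 and 7.60. UQCR11 was the only one of these genes higher in replicate 1, at 6.09, against 5.83 in replicate 2. The ETS match of the UQCRQ promoter lies at -54 to -48 from its start, and its summits lay 109 and 131 bp downstream of the start.

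In complex IV the best-ranked peaks were those of COX5A and COX5B, whose products bind the core of cytochrome c oxidase. COX5A had 9.64 in replicate 1 and 25.4 in replicate 2, with summits 113 and 111 bp downstream of the start, at percentiles 88.4 and 97.0. In replicate 1 its peak spanned chr15:74937447-74938572, which holds the whole promoter stretch printed above. COX5B had 11.4 and 11.7. The printed stretch of COX5A holds 4 matches to GGGCGG or its reverse complement and none to the other motifs, while that of COX5B also holds a CATGCGC match at -135 to -129 and an ETS match at -37 to -31. COX7C had 5.51 and 12.4 and COX6C 5.50 and 8.73.

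In complex V all 5 genes of the catalytic F1 head were called. ATP5F1B, the catalytic beta subunit, had 10.8 in replicate 1, at chr12:56645538-56646645, and 24.3 in replicate 2, while ATP5F1A, the alpha subunit, had 2.81 and 7.19 and the delta subunit gene ATP5F1D 6.21 and 3.36. These 3 partners of the same head therefore held the strongest and the weakest peaks of the complex. ATP5F1E had 9.52 and 10.01 and ATP5F1C 6.89 and 8.93. All 4 peripheral stalk genes were called, with ATP5PO at 9.67 in replicate 1 and 11.8 in replicate 2, and ATP5PF at 4.89 and 12.5. In the c-ring family, whose 3 genes encode the same mature protein, ATP5MC1 had 10.5 and 13.8, ATP5MC3 had 6.09 and 9.80, and ATP5MC2 had the internal peak given above. ATP5MF, subunit f, had 8.86 and 11.5, and ATP5IF1, the inhibitor of ATP synthase run in reverse, had 6.10 and 12.6.

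The replicates ranked the members alike only in part. Across the 73 called members the rank correlation of fold enrichment between replicates was 0.65 (Spearman), and across all 10012 called protein-coding genes 0.76. These are correlations across genes that share both libraries, and genes are not independent replicates. Fold enrichment was higher in replicate 2 at 66 of 73 members (90.4%) and at 89.8% of all called genes, with median log2 ratios of replicate 2 over replicate 1 of 0.59 and 0.62. The 7 members higher in replicate 1 were NDUFA10, NDUFS8, NDUFS4, NDUFA3, UQCR11, COX6B1 and ATP5F1D. The shift between the lists at members was close to that over all called genes, so a higher fold enrichment in replicate 2 is not by itself a higher rank. COX7B, for example, stood at percentile 67.7 in replicate 1 and 61.9 in replicate 2, and COX4I1 at 63.3 and 59.4.

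Peaks sat just downstream of the start at most members. Of the 88 members, 71 matched an entry of the RefSeq promoter table, which gives strand and start, and 61 of these were called in both lists. Relative to the nearest annotated start, the median summit position among members was +63 bp in replicate 1 (quartiles +28 and +94) and +85 bp in replicate 2 (+9.75 and +140.2). The medians for all called protein-coding genes were +63 and +86 bp, with quartiles of -169 and +119 bp in replicate 1 and -164 and +140 bp in replicate 2. A summit from 0 to 200 bp downstream was found at 73.8% of members in replicate 1 and 75% in replicate 2, and at 59.4% and 61.2% of all called genes, among summits within 1 kb of a start. Summits of both replicates lay a median of 39 bp apart and within 100 bp at 63 of 73 members (86.3%), and a median of 37 bp apart and within 100 bp at 79.7% of all called genes. At NDUFB6 the strongest peaks of the lists lay at opposite gene ends, 20759 bp apart, though each list had a peak at both ends.

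**Figure D4:**
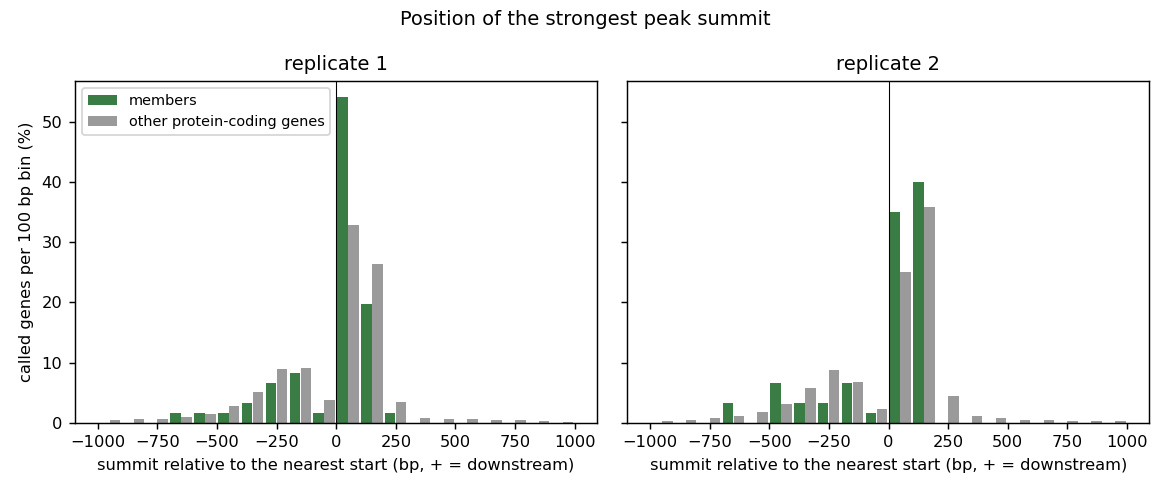
Position of the strongest summit relative to the nearest annotated start, in bins of 100 bp from -1000 to +1000 bp, as a percentage of called genes whose summit lay within 1 kb of a start in the RefSeq promoter table, for members (left bar of each bin) and other protein-coding genes (right bar), in each replicate. The tallest bins of both sets lie between 0 and +200 bp, and the bin just before the start is low.

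Many of the summits lay near an end of another gene. At 32 of the 73 called members (43.8%) an end of another protein-coding gene lay within 1 kb of the replicate 2 summit, and at 29.8% of all called genes. Of the 32, 4 are the readthrough genes and the members they share an end with. At 10 members (13.7%) the other gene end was nearer to that summit than the member end, and at 13.8% of all called genes, so that peak cannot be assigned to the member alone. Besides RPS28 and EEF1B2, these nearer genes were RNF113A at NDUFA1, MRPL36 at NDUFS6, TOPORS at NDUFB6, CPSF2 at NDUFB1, MRPL47 at NDUFB5, GDF9 at UQCRQ, HAUS1 at ATP5F1A and GABPA at ATP5PF. At NDUFB6 this holds for the replicate 2 peak at its far end only, and the replicate 1 summit lay 120 bp from its own start. MRPL36 and MRPL47 encode proteins of the mitochondrial ribosome, the machine that makes the subunits encoded in mitochondrial DNA. ATP5PF, a peripheral stalk subunit, and GABPA, the DNA-binding subunit of GABP, share a peak with a fold enrichment of 4.89 in replicate 1 and of 12.5 in replicate 2, with its replicate 2 summit 210 bp from the GABPA end. The ATP5PF span ends 891 bp from that summit, but an annotated ATP5PF start lies 142 bp from it. The stretch printed above ends at another annotated ATP5PF start, farther upstream, and holds an ETS match at -30 to -24, a YY1 match at -57 to -50 and the letters GCGCATG at -120 to -114. Median percentiles were 63.5 and 60.2 at the 32 members with such a neighbour and 58.3 and 57.9 at the other 41. With summits nearer to another protein-coding gene left out, 63 members (71.6%) and 43.1% of all protein-coding genes were called.

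The promoters of the members were searched on both strands for 10 motifs in the 300 bp window of the table, 250 bp before to 50 bp after the start, taking for each gene the start nearest to the outer 5′ end of its span. The letters were GAAA, NN and GAAA in a row for a full IRF element (ISRE), where N is any base, AANNGAAA for an IRF core, CCGGAAG for ETS factors such as GABP, GCGCA followed at once by TGCGC for the NRF1 palindrome, CATGCGC as a shorter NRF1 form, AAGATGGC for YY1, GGGCGG for SP and KLF factors, CCAAT for NF-Y, CACGTG for an E-box and TGACGTCA for a CRE. The IRF core is contained in the ISRE and CATGCGC in the palindrome, so these matches overlap. A match is a description of the letters and does not show binding. The median member summits, at +63 bp in replicate 1 and +85 bp in replicate 2 from the nearest annotated start, lay beyond this window. Sequence under many summits was therefore not searched, and a promoter without a match may still hold one under its peak.

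No member promoter held the ISRE letters, 0 of 71, and 3 counts of the 71, the limit used here for a count of 0, would be 4.23%, while 3.18% of 15843 protein-coding promoters held them. The IRF core was found in 14 member promoters (19.7%) and in 18.9% of all. The members' share for either IRF pattern was therefore not distinguishable from that of all promoters at this number of genes. Among the 14 members with the core letters 12 were called, and among the 57 without them 49, or 85.7% and 86.0%. Over all protein-coding promoters, 45.0% of the 3002 with the core letters were called and 54.3% of the 12841 without them.

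Letters of the respiratory gene factors were more frequent in the members than in all promoters. ETS letters were found in 20 of 71 (28.2%), against 14.2% of all protein-coding promoters, and YY1 letters in 11 (15.5%), against 3.86%. The shorter NRF1 letters were found in 14 (19.7%), against 5.88%, and the full NRF1 palindrome in 4 (5.63%), against 1.77%. The CRE was found in 5 (7.04%), against 2.56%. SP and KLF letters, at 59.2% and 58.3%, CCAAT, at 35.2% and 36.4%, and the E-box, at 9.86% and 8.82%, were found at about the same share in members and in all promoters. In the 100 bp before the start the palindrome was in 1.41% of members and 1.004% of all, and the E-box in none of the members and in 4.17% of all.

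Called genes in general also held these letters more often. ETS letters were found in 31.1% of the 61 called members, in 22.2% of all called protein-coding promoters and in 5.25% of those not called. YY1 letters were found in 18.03% of called members, 6.23% of all called and 1.25% of not called promoters. By complex, ETS letters occurred in 15.2% of 33 complex I promoters, 42.9% of 7 in complex III and 35.7% of 14 each in complexes IV and V, and in 2 of 3 in complex II. Among members, strength did not follow the ETS match in the same way in both lists. Called members with it had median percentiles of 46.3 in replicate 1 and 62.1 in replicate 2, and those without it 59.3 and 57.2. Over all called promoters the medians were higher with the match in both lists, at 56.4 and 59.1, against 50.1 and 53.3 without it. These shares were not tested, and the sets are not of one base composition. Median GC content was 61.3% in called members and 52.7% in the 10 members not called. It was 65.3% in all called promoters and 58.3% in promoters not called. The median number of CG dinucleotides per window differed more. It was 24 in called members, 9 in members not called, 27 in all called promoters and 10 in promoters not called.

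**Figure D5:**
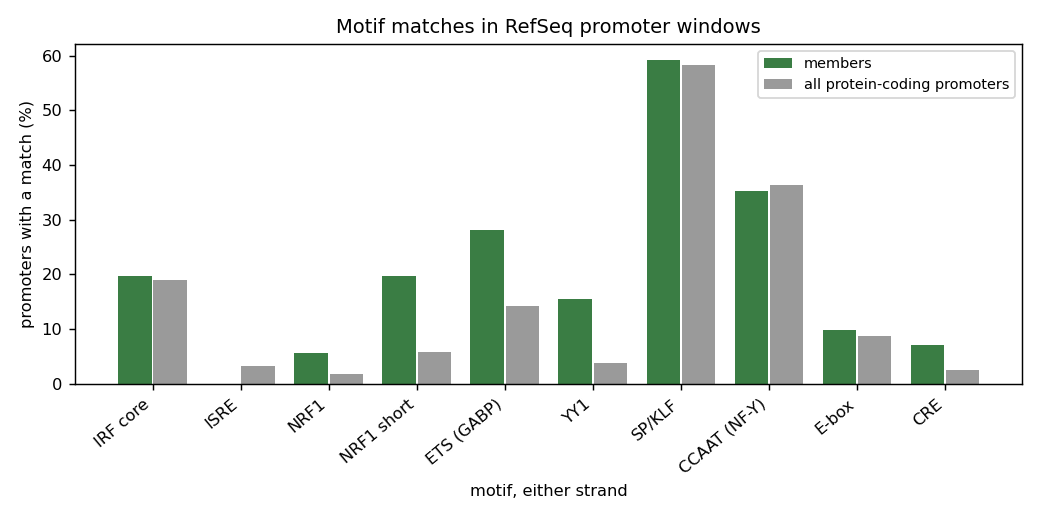
Share of RefSeq promoter windows (%) with a match to each of 10 motifs on either strand, for the 71 members with an entry (left bar) and all 15843 protein-coding promoters (right bar). The ETS, YY1 and NRF1 bars are higher in members, the ISRE bar of members is at 0, and the SP/KLF, CCAAT, E-box and IRF core pairs are of similar height.

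Genes that build and control the respiratory chain also had peaks at a high share. Of 63 assembly factors, 59 had a peak in both lists (93.7%, interval 84.5 to 98.2%), beside the 50.0% of all protein-coding genes. The best-ranked by the lower replicate percentile were COX20, which helps insert COX2 into complex IV, with 13.7 in replicate 1 and 19.2 in replicate 2, the copper carrier SCO2 with 10.7 and 17.05, and DMAC2L with 10.1 and 18.6. The SCO2 summits lay 496 and 535 bp from its gene end, and those of DMAC2L 940 and 906 bp. Whether another gene end lay nearer was not checked for this list. The assembly factors had median fold enrichments of 7.08 and 9.16, and all called genes 5.56 and 8.50. BCS1L and COA3 had a peak in replicate 1 alone, NDUFAF3 in replicate 2 alone, and FMC1 in neither.

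A list of 11 other respiratory genes outside the symbol rule held cytochromes, the electron transfer flavoprotein genes and ETFDH, complex IV subunits, the haem lyase gene HCCS, the ubiquinone synthesis genes COQ7 and COQ9, and DHODH, an enzyme of pyrimidine synthesis that reduces ubiquinone. Of these, 9 were called in both lists (81.8%, interval 48.2 to 97.7%), beside the 50.0% of all protein-coding genes. CYCS, the cytochrome c gene, had 19.6 and 35.4, COXFA4, a complex IV subunit formerly counted in complex I as NDUFA4, had 8.83 and 15.6, and ETFA, a subunit of the electron transfer flavoprotein, 8.36 and 11.2. ETFB and COXFA4L2 had no peak. CYC1, the cytochrome c1 subunit of complex III, had 5.72 and 7.03.

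Of 21 regulators of mitochondrial biogenesis, 20 were called in both lists (95.2%, interval 76.2 to 99.9%), beside the 50.0% of all protein-coding genes. Their median fold enrichments were 6.22 and 10.3, and those of all called genes 5.56 and 8.50. By the lower of the replicate percentiles, the first 3 were the mitochondrial DNA polymerase gene POLG, with 15.2 in replicate 1 and 24.5 in replicate 2, GABPB2, with 9.29 and 15.01, and ESRRA, with 7.62 and 13.0. Within a single list the order below POLG differed, with SLIRP at 17.7 in replicate 2 and GABPB1 at 8.43 in replicate 1. NRF1 had 6.90 and 13.9 and TFAM, the packaging factor of mitochondrial DNA, 6.80 and 10.8. PPARGC1A, which encodes the coactivator PGC-1alpha, had weak peaks of 2.48 and 5.53, and PPARGC1B had none.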

How the data were processed

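Chromatin bound by IRF3 in MM1.S cells was sequenced in 2 libraries, each with an input. MACS2 2.1.2 was run by the authors on each ChIP library with its own input as control, for narrow peaks at a q-value cutoff of 0.05 with duplicate tags kept at that step, per the file headers. The tag size was 74 bp. The submitters' processing notes list, without roles, the build GRCh38 and the tools SAMtools 1.2, MACS2 2.1.1, deepTools 3.3.1, Picard 2.6.0 and BWA 0.7.15. Filters on duplicate reads or blacklisted regions are not given in the sources used here. The deposited fold enrichment is a ratio of ChIP pileup to local input, the deposited pileup is a signal, and the deposited −log10 q was read by the column order of MACS2, since a spreadsheet had damaged its header. Each is a value per peak, used to describe, rank and filter within a list.

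Gene spans came from a RefSeq table of GRCh38.p14, and strands, starts and promoter sequence from a RefSeq promoter table. Peaks were assigned in pandas 2.3.3 and numpy 2.4.6 under Python 3.11.15, scipy 1.17.1 gave exact Clopper-Pearson intervals, and the assignment was tested on simulated data. No test of difference was made. Members, gene lists, motifs and roles were chosen with earlier results of these data known. The named genes were the 4 best-ranked of each complex by the lower replicate percentile, each member not called in both lists, the isoform pairs, the 3 best-ranked of each pathway list, and NRF1, GABPA, TFAM and PPARGC1A. The values of 1 member that this rule names are not reported here. Other genes named here were chosen after their values were seen. Alternatives changed the distance, peak threshold, overlap of the lists, start sites, neighbours and replicate.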

Additional observations from a re-analysis of the deposited data

How the results depend on the processing

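The count of 73 called members ranged from 52 to 78 over 12 alternatives, and each of these was within 1.5 times the value reported. Leaving out a replicate gave 73 and 74. The number of members examined differed in some alternatives, and with start sites alone 66 of 71 were called (93.0%), beside 54.5% of all. With a fold enrichment of at least 5 in each list, complex II had 2 and complex III 4 called members; the counts of the other complexes stayed within 1.5 times under each alternative. Adding annotated starts to gene ends, or leaving out readthrough genes (71 of 86 called), was chosen after seeing the data. The median percentile of the complexes, averaged over replicates, was 54.0, 40.7, 44.8, 61.3 and 65.9 for complexes I to V. By pileup it was 62.7 in complex I, 63.6 in complex II, 48.7 in complex IV and 72.1 in complex V. Within 5 kb it was 60.2, 63.4 and 68.4 in complexes II, IV and V, and with the nearest peak 42.7 and 62.8 in complexes II and IV. With a replicate left out it was 55.0 to 59.2, 43.0 to 44.2, 42.3 to 50.9, 61.3 to 62.2 and 65.8 to 69.3 for complexes I to V. In the 100 bp before the start, a shorter window that can only hold fewer matches, 13 members held ETS, 15 CCAAT, 5 IRF core, 5 shorter NRF1, 3 CRE, 1 NRF1, 1 YY1 and 0 E-box letters. For ETS letters this was 18.3% of members and 8.06% of all promoters, for YY1 letters 1.41% and 0.524%, for the NRF1 palindrome 1.41% and 1.004%, for shorter NRF1 letters 7.04% and 3.17%, for the CRE 4.23% and 1.65%, for the IRF core 7.04% and 5.95%, for CCAAT 21.1% and 21.01%, and for the E-box 0% and 4.17%. No paired analysis was possible because inputs enter as the control of each peak list, which leaves 1 group of values and no test. Sites that missed the q-value cutoff are not in the lists, so a gene without a peak is not shown to be unbound at this depth.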
